A study of Arabidopsis thaliana with 10 samples.

Results

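SWEET proteins are a family of membrane carriers that let sugars pass along their concentration gradient, out of cells or across the vacuolar membrane. In Arabidopsis thaliana the members of clades I and II carry mainly hexoses, those of clade III mainly sucrose, and those of clade IV sit in the vacuolar membrane and carry fructose and glucose. In leaves the clade III carriers release sucrose next to the phloem, and SAG29 (SWEET15) is a classical marker transcript of senescing leaves. The genes were taken as every probe set that names exactly 1 gene whose symbol or synonym is SWEET and a number. That gave 16 of the 17 SWEET genes of the annotation. SWEET12 was not analysed here, because the annotation used names no probe set for it alone. Of the 16, 9 reached a signal of 50 on 2 or more of the 10 arrays and were described over all groups. By the same threshold 12184 of 22810 probe sets were tested.

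The study measured gene expression in fully expanded leaves on Affymetrix arrays, in plants altered in stress hormone pathways and in wild type. There were 5 groups of 2 arrays. NahG plants carry a transgene for a bacterial enzyme that degrades salicylic acid, and the labels do not give the promoter that drives it. The ein2 plants lack normal ethylene signalling, and the coi1 plants lack the jasmonate receptor component COI1. The labels call NahG, ein2 and coi1 transgenic, in the Columbia background, and all 3 were sampled at stage 6.0. Wild type (WT) plants were sampled at stage 6.0 and at stage 3.9. On the scale commonly used for Arabidopsis these stages are the opening of the first flower and the end of rosette growth. All plants were grown on compost without treatment.

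Some labels conflict. In each WT group array 1 carries stock code N933 and array 2 carries N1644. The source name of the N1644 array is Col-5 at stage 3.9 but Col-0 at stage 6.0. Its title holds C5 at both stages, where the titles of the N933 arrays hold C0, so title and stock code go together. The coi1 arrays carry the stock code of the ein2 arrays, N3071, while their titles differ (Co and Ei). The probe sets of EIN2 and COI1 were not used here, so the altered genes were not checked, and NahG is not a plant gene. Arrays of 1 group correlated at 0.941 to 0.977 over all tested probe sets, against 0.847 to 0.957 between groups at stage 6.0 and 0.70 to 0.772 between the stages. On each array 9738 to 10835 probe sets reached a signal of 50. The 5 named mesophyll markers (RCA, PSAN, LHCB4.1, LHCB4.2 and LHCB4.3) were all detected, with summed signals of 6826 to 7472 in NahG, 5155 to 5195 in ein2, 5558 to 7286 in coi1, 4348 to 5329 in WT at stage 6.0 and 15420 to 20680 in WT at stage 3.9. No probe set naming 1 gene was found for the companion cell, trichome, floral or dividing cell markers. The 1 guard cell probe set, FMA, measured 19.22 to 62.58 and was not tested. In whole leaves, fewer cells of a type and less RNA per cell cannot be told apart.

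SAG29, the clade III sucrose carrier that marks senescing leaves and also feeds developing seeds, varied most among the family. It measured 993.5 and 793.9 in NahG, 85.04 and 91.48 in ein2, 143.3 and 166.4 in coi1, 851.6 and 166.1 in WT at stage 6.0, and 8.675 and 15.92 in WT at stage 3.9. All 8 stage 6.0 arrays lay above both stage 3.9 arrays. Both NahG arrays lay above all ein2 and coi1 arrays. The WT arrays at stage 6.0 differed 5.13-fold from each other, one lying between the NahG values and the other between the coi1 values.

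SAG29 rose in WT at stage 6.0 relative to stage 3.9, with means of 508.9 ± 485 and 12.3 ± 5.12 (SD, n = 2 each). The log2 change was 3.82 ± 0.52 (SE, limma, adjusted p = 0.000236, higher on 2 of 2 stage 6.0 arrays), on the scale of log2(signal + 16), which understates the change of a transcript this low at stage 3.9. As the stage 3.9 signals may be background, the size depends on the added constant, at 4.88 with 1 added and 2.59 with 64 added (adjusted p = 0.000124 and 0.00117). Without WT stage 6.0 array 1 the change was 2.70, and without array 2 it was 4.95. SAG29, SWEET14 and SWEET8 reached a signal of 50 on stage 6.0 arrays only (SWEET8 in NahG and ein2), so these 3 passed the filter through those arrays. The ratio of 3′ to 5′ signal of the ubiquitin control, a measure of RNA integrity and labelling, was 1.68 and 1.81 in WT at stage 6.0 and 2.97 and 2.53 in WT at stage 3.9. The same ratio of the actin control went the other way, at 10.0 and 5.18 in WT at stage 6.0 and 5.09 and 4.09 at stage 3.9. The hybridisation controls averaged 666 and 735 at stage 6.0 and 1241 and 1139 at stage 3.9. The part of RNA integrity, labelling or hybridisation in the stage differences of the family was not tested gene by gene. Scaled to the hybridisation controls, the median of all tested probe sets moved to 0.69, and relative to that median SAG29 rose by 3.60 on the log2 scale, SWEET4 by 0.54, and SWEET17 measured -1.98.

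Relative to WT at stage 3.9 SAG29 was also higher in NahG by 5.01 ± 0.52 (SE, limma, adjusted p = 5.21e-05), in ein2 by 1.89 ± 0.52 (adjusted p = 0.0165) and in coi1 by 2.60 ± 0.52 (adjusted p = 0.00309). The ein2 difference did not pass without stage 3.9 array 1 (adjusted p = 0.0652), ein2 array 1 (adjusted p = 0.0608) or ein2 array 2 (adjusted p = 0.0822), nor with 64 in place of 16 added to the signals (1.0, adjusted p = 0.115).

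**Figure D1:**
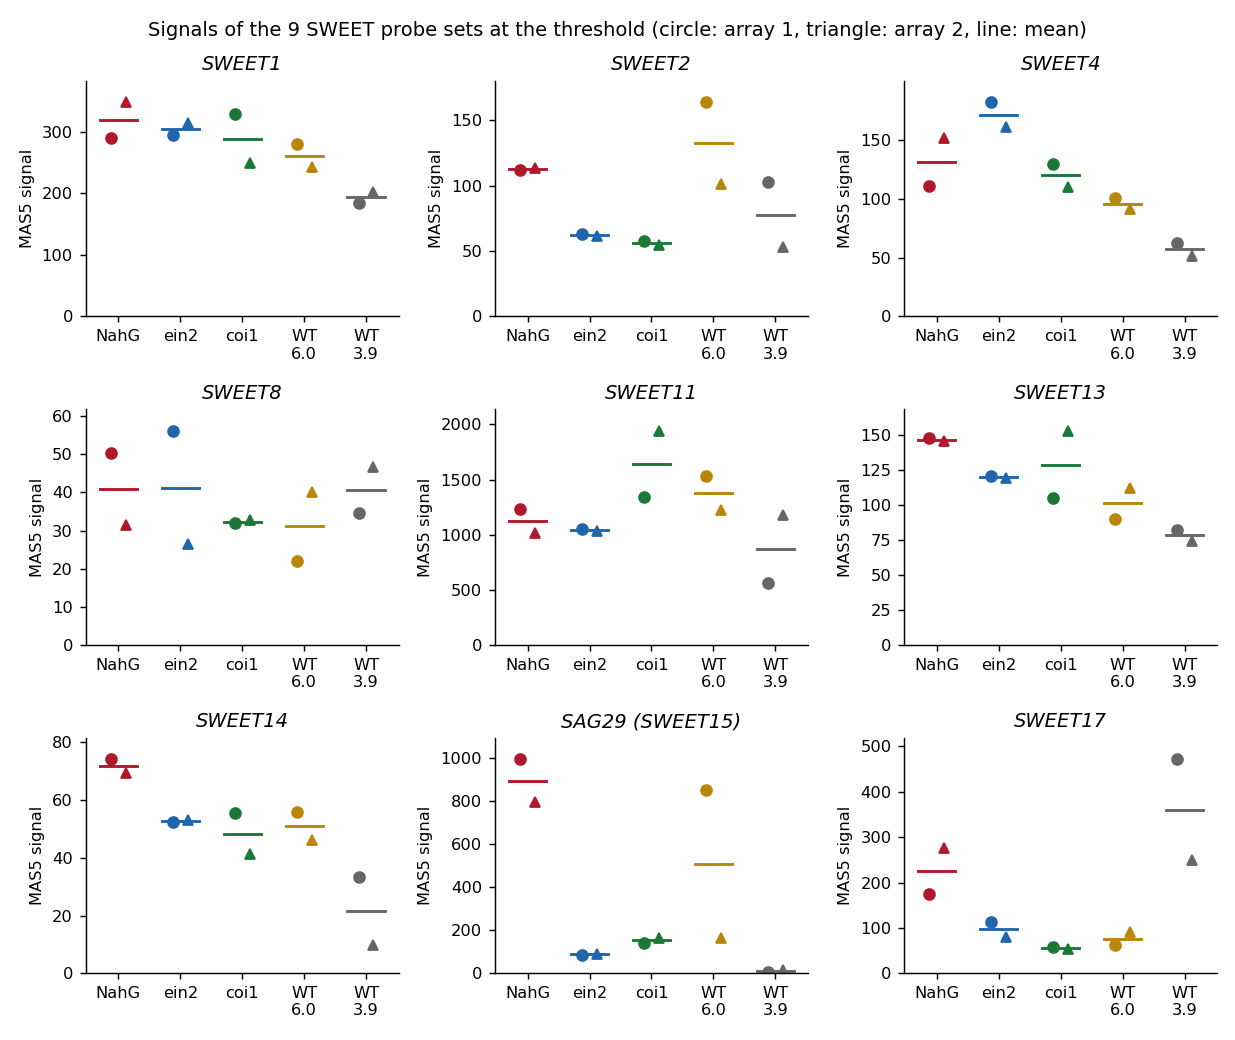
Signal (linear scale, from 0) of the 9 SWEET probe sets in NahG, ein2, coi1, WT at stage 6.0 and WT at stage 3.9. Circles are array 1, triangles array 2 and lines the mean of 2 arrays. SAG29 is near 0 at stage 3.9 and split between the WT arrays at stage 6.0 (851.6 and 166.1), SWEET17 is highest at stage 3.9 (471.3 and 249.8), and SWEET2 is low on all ein2 and coi1 arrays (54.59 to 62.9).

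In the stage 6.0 genotypes SAG29 stood at 893.7 ± 141 in NahG against 88.26 ± 4.56 in ein2 and 154.8 ± 16.3 in coi1 (SD, n = 2 each). It was higher in NahG than in ein2 by 3.12 ± 0.52 on the log2 scale (SE, limma, adjusted p = 0.00381) and higher than in coi1 by 2.41 ± 0.52 (adjusted p = 0.0134), on 2 of 2 NahG arrays in both. The difference from ein2 passed the test under every alternative run, with adjusted p up to 0.0498 when single arrays were left out. The difference from coi1 did not pass when any of the 4 NahG and coi1 arrays was left out (adjusted p = 0.0621 to 0.103). The log2 difference of ein2 and coi1 was -0.71 ± 0.52 (adjusted p = 0.525), with a 95% interval of -1.86 to 0.44, and it passed with only these 2 groups in the fit (adjusted p = 0.0485).

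Against WT at stage 6.0, no SAG29 difference passed the test with both WT arrays and the scaling to a common trimmed mean. The log2 differences were 1.19 ± 0.52 in NahG (SE, limma, adjusted p = 0.202), -1.93 ± 0.52 in ein2 (adjusted p = 0.209) and -1.22 ± 0.52 in coi1 (adjusted p = 0.323). These 3 comparisons share the WT stage 6.0 arrays. Scaled to the hybridisation controls, the ein2 difference measured -2.22, with an adjusted p of 0.000433 in limma. That fit gave SAG29 an adjusted p of 3.01e-30 in NahG against WT at stage 3.9, from 2 arrays a group. The controls averaged 516 and 1009 on the coi1 arrays. The p-values of that scaling are thus not relied on for SAG29. Without WT array 1, NahG was higher by 2.31 (adjusted p = 0.000383), while ein2 measured -0.81 and coi1 -0.10. Without WT array 2, ein2 was lower by 3.06 on the log2 scale (log2 difference -3.06, adjusted p = 0.000613) and coi1 likewise (log2 difference -2.35, adjusted p = 0.00202), while NahG measured 0.06. Which WT array was kept thus decided which genotypes differed from WT in SAG29. The actin control ratio of 3′ to 5′ signal was 10.0 on WT array 1 and 5.18 on WT array 2 at stage 6.0, against 4.09 to 7.55 on the other 8 arrays. The ubiquitin control ratio did not set WT array 1 apart, at 1.68 on array 1 and 1.81 on array 2, against 1.67 to 2.97 on the other 8. The part of either ratio in the SAG29 difference was not tested.

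**Figure D2:**
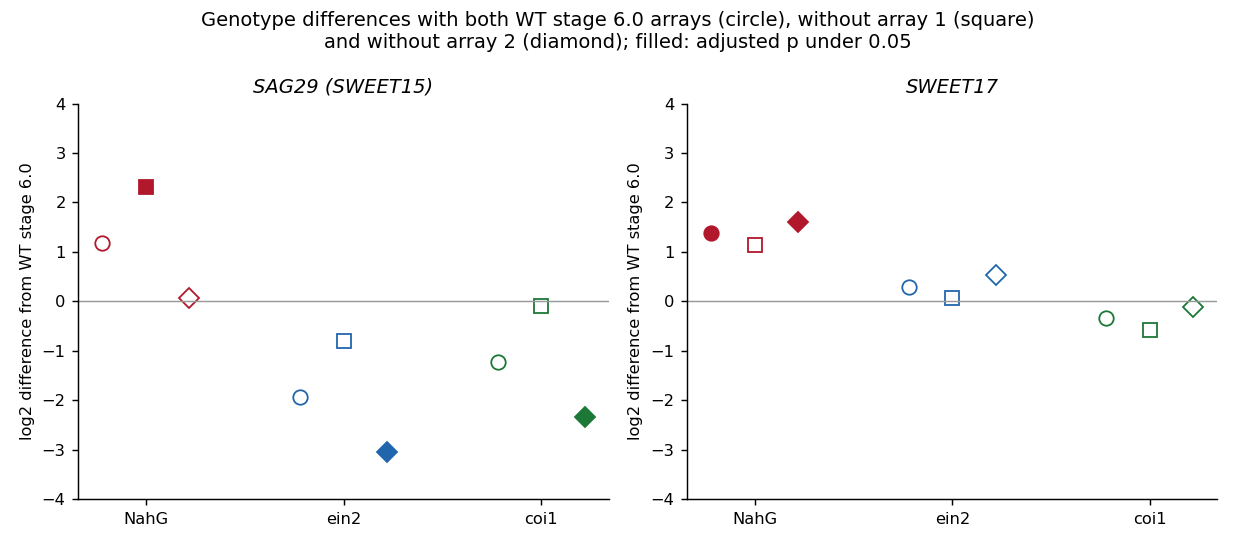
Differences of NahG, ein2 and coi1 from WT at stage 6.0 in SAG29 (left) and SWEET17 (right), on the scale of log2(signal + 16). Circles use both WT arrays, squares leave out WT array 1 and diamonds WT array 2, and filled symbols have an adjusted p under 0.05. For SAG29, NahG passes the test only without array 1 (2.31), and ein2 (-3.06) and coi1 (-2.35) only without array 2.

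The other sucrose carriers of clade III varied less. SWEET11, which with SWEET12 releases sucrose from phloem parenchyma cells for loading, measured 1234 and 1016 in NahG, 1051 and 1036 in ein2, 1346 and 1941 in coi1, 1536 and 1220 in WT at stage 6.0, and 562.1 and 1179 in WT at stage 3.9. Both coi1 arrays lay above all NahG and ein2 arrays, and array 2 of stage 3.9 lay within the range of NahG. The stage change in WT was 0.74 ± 0.31 on the log2 scale (SE, limma, adjusted p = 0.0864), which passed the test without WT stage 3.9 array 2 (1.26, adjusted p = 0.0047). In coi1 SWEET11 was higher than in WT at stage 3.9 by 0.97 ± 0.31 (adjusted p = 0.0325), which did not pass without stage 3.9 array 1 (0.45, adjusted p = 0.232) or without coi1 array 2 (0.71, adjusted p = 0.205). Without stage 3.9 array 2, SWEET11 was also higher than at stage 3.9 in NahG (0.97, adjusted p = 0.0209) and in ein2 (0.87, adjusted p = 0.0321).

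SWEET13, which carries sucrose and also gibberellins, measured 147.5 and 145.3 in NahG, 120.4 and 119.0 in ein2, 104.7 and 152.6 in coi1, 90.07 and 112.2 in WT at stage 6.0, and 82.01 and 74.17 in WT at stage 3.9. All stage 6.0 arrays lay above both stage 3.9 arrays, and the coi1 arrays spanned the NahG and ein2 values. The stage change in WT was 0.31 ± 0.19 on the log2 scale (SE, limma, adjusted p = 0.23) and did not pass. Nor did the difference of NahG from WT at stage 6.0 (0.48 ± 0.19, adjusted p = 0.16). In the comparisons that follow, genotype and stage differ together. SWEET13 was higher than in WT at stage 3.9 in NahG by 0.79 ± 0.19 (SE, limma, adjusted p = 0.00938) and in coi1 by 0.60 ± 0.19 (adjusted p = 0.0313). The coi1 difference did not pass without coi1 array 2 (0.36, adjusted p = 0.265), stage 3.9 array 1 (0.66, adjusted p = 0.0563) or stage 3.9 array 2 (0.54, adjusted p = 0.114). In ein2 the difference was 0.53 ± 0.19 (adjusted p = 0.0526). In the annotation SWEET13 lies next to SWEET10, a clade III gene that stayed under a signal of 50 on all arrays (7.655 to 37.52).

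SWEET14, which like SWEET13 carries sucrose and gibberellins, measured 74.03 and 69.25 in NahG, 52.43 and 53.09 in ein2, 55.4 and 41.39 in coi1, 55.75 and 46.19 in WT at stage 6.0, and 33.19 and 9.775 in WT at stage 3.9. The NahG arrays were the highest and the stage 3.9 arrays the lowest, without overlap with the other groups. SWEET14 rose in WT at stage 6.0 by 0.91 ± 0.28 on the log2 scale (SE, limma, adjusted p = 0.0251), which did not pass without stage 3.9 array 2 (0.44, adjusted p = 0.187) or without WT stage 6.0 array 1 (0.80, adjusted p = 0.117). It was also higher than in WT at stage 3.9 in NahG by 1.30 (adjusted p = 0.0048), in ein2 by 0.95 (adjusted p = 0.0221) and in coi1 by 0.85 (adjusted p = 0.0365). Without stage 3.9 array 2 the ein2 difference was 0.48 (adjusted p = 0.16) and the coi1 difference 0.38 (adjusted p = 0.266). The ein2 difference also failed without either ein2 array, and the coi1 difference passed in 3 of the 10 fits with an array left out. SWEET14 lies next to AMY1, a secreted alpha-amylase gene, which measured 412.6 and 405.4 in NahG, 333.8 and 466.2 in ein2, 307.4 and 390.3 in coi1, 546.3 and 264.7 in WT at stage 6.0, and 82.61 and 82.33 in WT at stage 3.9. Both neighbours were thus lowest at stage 3.9.

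SWEET17, the clade IV carrier that moves fructose across the vacuolar membrane of leaf cells, ran in the opposite direction with stage. It measured 175.3 and 275.4 in NahG, 113.0 and 80.6 in ein2, 58.01 and 53.28 in coi1, 61.69 and 90.77 in WT at stage 6.0, and 471.3 and 249.8 in WT at stage 3.9. The coi1 arrays were the lowest of all, the ein2 and WT stage 6.0 arrays overlapped, and both NahG arrays lay above these 3 groups, with array 2 inside the stage 3.9 range. In WT at stage 6.0 SWEET17 fell by 1.98 on the log2 scale (SE 0.30, limma, adjusted p = 0.000511, lower on 2 of 2 arrays), with means of 76.23 ± 20.6 at stage 6.0 and 360.5 ± 157 at stage 3.9 (SD, n = 2 each). It was likewise lower than in WT at stage 3.9 in ein2 (log2 difference -1.69, adjusted p = 0.00159) and in coi1 (log2 difference -2.33, adjusted p = 0.000241). In NahG the log2 difference from stage 3.9 was -0.61 ± 0.30 (adjusted p = 0.157), with a 95% interval of -1.28 to 0.06, and it passed without stage 3.9 array 2 (-1.05, adjusted p = 0.0251).

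NahG was thus the genotype in which SWEET17 was highest at stage 6.0, at 225.3 ± 70.8 (SD, n = 2), against 96.81 ± 22.9 in ein2 and 55.64 ± 3.34 in coi1. Relative to WT at stage 6.0 SWEET17 was higher in NahG by 1.37 ± 0.30 on the log2 scale (SE, limma, adjusted p = 0.0172). That difference did not pass without NahG array 2 (1.07, adjusted p = 0.133) or without WT array 1 (1.14, adjusted p = 0.104), nor without the filter on low signals (adjusted p = 0.0516) or scaled to the hybridisation controls (1.29, adjusted p = 0.0735). SWEET17 was higher in NahG than in coi1 by 1.72 ± 0.30 (adjusted p = 0.0042), a difference that did not pass without NahG array 2 (1.42, adjusted p = 0.0515). The difference of NahG from ein2 was 1.08 ± 0.30 (adjusted p = 0.0582), and it passed without stage 3.9 array 1 (adjusted p = 0.0179) or array 2 (adjusted p = 0.0175). The log2 differences from WT at stage 6.0 were 0.29 in ein2 (adjusted p = 0.782, 95% interval -0.38 to 0.97) and -0.35 in coi1 (adjusted p = 0.651, 95% interval -1.02 to 0.32).

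SWEET2, a clade I carrier of the vacuolar membrane, measured 112.3 and 113.2 in NahG, 62.9 and 61.86 in ein2, 57.91 and 54.59 in coi1, 163.7 and 101.5 in WT at stage 6.0, and 103.0 and 52.91 in WT at stage 3.9. The ein2 and coi1 arrays all lay below the NahG and WT stage 6.0 arrays, and the N933 array was the higher of the pair in both WT groups. The log2 difference from WT at stage 6.0 was -0.89 ± 0.26 in ein2 (SE, limma, adjusted p = 0.248) and -1.01 ± 0.26 in coi1 (adjusted p = 0.103), and neither passed the test. Without stage 3.9 array 1 or array 2, which estimate part of the spread, the coi1 difference did (adjusted p = 0.0327 and 0.0312). The stage change in WT was 0.68 ± 0.26 (adjusted p = 0.0621), at 0.59 in the N933 pair of arrays and 0.77 in the N1644 pair, and it passed without stage 3.9 array 1 (1.08, adjusted p = 0.00743) or without stage 6.0 array 2 (0.99, adjusted p = 0.0258). With a term for the stock in the WT arrays, SWEET2 passed the test in the stage comparison (0.68, adjusted p = 0.00652), in ein2 (-0.89, adjusted p = 0.0431) and in coi1 (-1.01, adjusted p = 0.00995) against WT at stage 6.0, and in NahG against ein2 (0.72, adjusted p = 0.0188) and against coi1 (0.83, adjusted p = 0.00642). That term was chosen after the data were seen. Without it, the SWEET2 differences of NahG from ein2 and coi1 did not pass in limma (adjusted p = 0.149 and 0.0689).

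SWEET4 and SWEET1, hexose carriers of the cell membrane, were lowest at stage 3.9. SWEET4, a clade II carrier expressed along veins, measured 110.9 and 151.2 in NahG, 181.6 and 161.0 in ein2, 129.5 and 109.9 in coi1, 100.2 and 91.37 in WT at stage 6.0, and 62.64 and 51.29 in WT at stage 3.9. Both ein2 arrays were the highest of all, and no altered genotype overlapped WT at either stage. SWEET4 rose in WT at stage 6.0 by 0.62 ± 0.19 on the log2 scale (SE, limma, adjusted p = 0.0233), a change that did not pass without WT stage 6.0 array 1 (0.56, adjusted p = 0.112), without array 2 (0.68, adjusted p = 0.0547) or without stage 3.9 array 2 (0.51, adjusted p = 0.116). Relative to WT at stage 3.9 it was higher in NahG by 1.0 (adjusted p = 0.00214), in ein2 by 1.36 (adjusted p = 0.000282) and in coi1 by 0.90 (adjusted p = 0.00388). The differences from WT at stage 6.0, of 0.38 in NahG (adjusted p = 0.252), 0.74 in ein2 (adjusted p = 0.168) and 0.28 in coi1 (adjusted p = 0.544), did not pass.

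SWEET1, a clade I glucose carrier, measured 289.4 and 347.6 in NahG, 294.7 and 314.8 in ein2, 328.1 and 249.9 in coi1, 279.4 and 242.1 in WT at stage 6.0, and 184.9 and 202.2 in WT at stage 3.9. The stage 3.9 arrays were the lowest, and the coi1 arrays overlapped all other stage 6.0 groups. Relative to WT at stage 3.9 SWEET1 was higher in NahG by 0.67 ± 0.19 (SE, limma, adjusted p = 0.0199), in ein2 by 0.61 (adjusted p = 0.0269) and in coi1 by 0.53 (adjusted p = 0.049), while the WT stage change was 0.40 (adjusted p = 0.12). The NahG and ein2 differences did not pass without stage 3.9 array 1 (adjusted p = 0.0697 in NahG and 0.0893 in ein2), the NahG one not without NahG array 2 and the ein2 one not without either ein2 array, and the coi1 difference did not pass in any fit with an array left out (adjusted p = 0.0527 to 0.321). SWEET8, a clade II glucose carrier needed for pollen development, reached 50 on 2 arrays only. It measured 50.36 and 31.51 in NahG, 56.15 and 26.4 in ein2, 31.87 and 32.83 in coi1, 22.04 and 40.15 in WT at stage 6.0, and 34.6 and 46.56 in WT at stage 3.9, and the coi1 and stage 3.9 arrays were the only groups that did not overlap. Its adjusted p lay between 0.503 and 0.995 in the 10 comparisons.

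**Figure D3:**
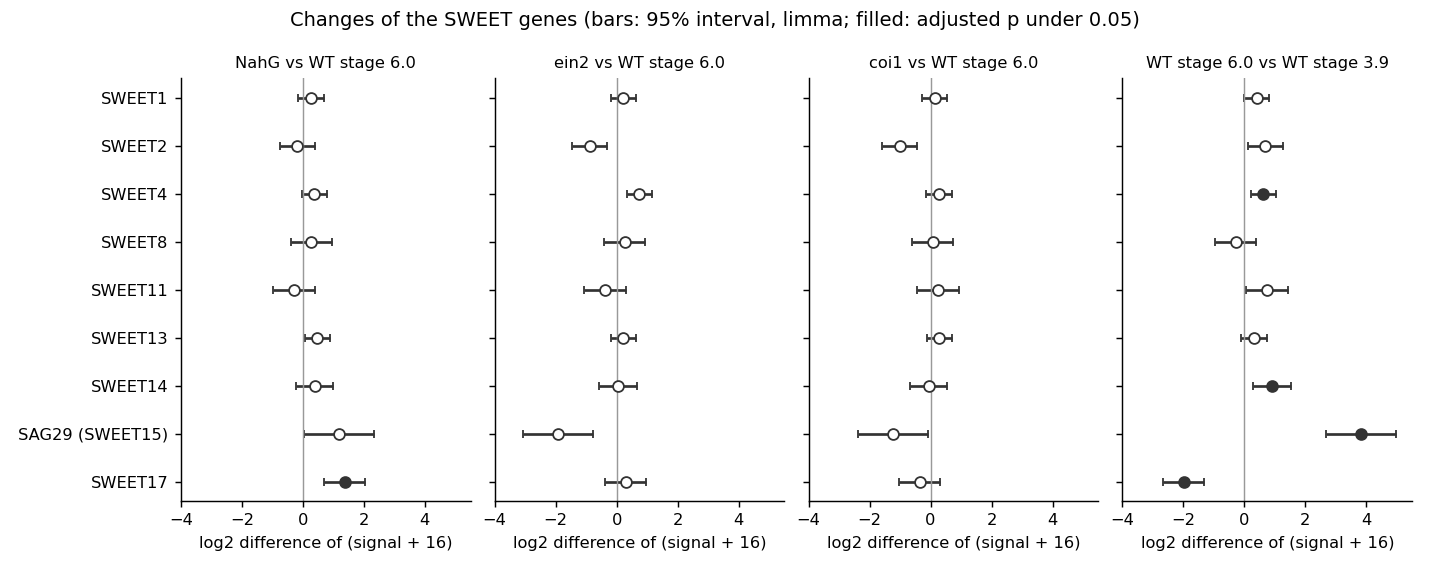
Differences on the scale of log2(signal + 16) for the 9 SWEET genes in NahG, ein2 and coi1 against WT at stage 6.0 and in WT at stage 6.0 against stage 3.9. Bars are 95% intervals from limma and filled points have an adjusted p under 0.05. With stage, SAG29 (3.82), SWEET14 (0.91) and SWEET4 (0.62) are higher and SWEET17 (-1.98) is lower, and among the genotypes SWEET17 in NahG (1.37) is the single filled point.

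The 7 genes under the threshold measured 2.516 to 48.91 over the 10 arrays. They were SWEET3, AtVEX1 (SWEET5, known from the vegetative cell of pollen), SWEET6, SWEET7, SWEET9 (the nectary carrier), SWEET10 and SWEET16, a vacuolar carrier of clade IV. Nearest to the threshold were SWEET6, with a highest signal of 48.91, and SWEET16, with 48.2, while SWEET8 just inside it had 56.15 and 50.36. The files hold no detection calls, so a signal in this range is not shown to be above background.

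In WT at stage 6.0 against stage 3.9, 3 of the 9 described genes were higher and 1 was lower, where 20.2% of all tested probe sets were higher and 17.2% lower. Their median log2 change was 0.62, against 0.05 over all tested probe sets, and it includes the 3 genes that reached the threshold on stage 6.0 arrays only. In NahG against WT at stage 6.0, 1 was higher (SWEET17) and 0 lower, with 3.61% of all probe sets higher and 5.5% lower. In ein2 against WT at stage 6.0 none passed in limma, with 0.123% of all probe sets called. In coi1 none passed in limma, with 1.01% of all probe sets called.

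Between the altered genotypes, 1 gene was higher in NahG than in ein2 (SAG29, with 3.34% of all probe sets higher) and 2 were higher in NahG than in coi1 (SAG29 and SWEET17, with 5.03% of all probe sets higher). Between ein2 and coi1 none passed in limma, with 0.706% of all probe sets called. Against WT at stage 3.9, where stage and genotype differ together, 5 genes were higher and 0 lower in NahG (15.9% and 15.3% of all probe sets). In ein2 4 were higher and 1 lower (18.4% and 16.1%), and in coi1 6 were higher and 1 lower (19.5% and 15.2%). SWEET17 was the 1 lower gene in both, and SWEET4, SWEET14, SWEET1 and SAG29 were higher in all 3 genotypes. The share of all probe sets higher in all 3 was not counted, so this overlap has no background to be read against. Not all of these calls held when single arrays were left out, as described above for each gene. The 3 comparisons share the 2 WT stage 3.9 arrays, so they are not independent of each other. SAG29 and SWEET14 reached the signal threshold on stage 6.0 arrays only.

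Few other genes of sugar metabolism had a probe set naming them alone: 0 of 9 sucrose carriers, 5 of 36 other sugar carriers, 2 of 25 genes of starch breakdown and plastid sugar exchange, 2 of 30 of sucrose synthesis and cleavage, and 0 of 9 sugar starvation genes. With stage in WT, 1 of the 4 tested other sugar carriers was higher and 0 were lower. This was SFP1, a carrier of the ERD6 group, at 764.6 and 523.5 in stage 6.0 and 325.4 and 249.8 in stage 3.9 leaves (log2 change 1.11 ± 0.21, SE, limma, adjusted p = 0.002). The vacuolar sugar importers TMT1 (-0.27, adjusted p = 0.453) and TMT2 (0.30, adjusted p = 0.471) and SFP2 (-0.60, adjusted p = 0.094) did not pass. In NahG against WT at stage 6.0 SFP1 measured 0.12 (adjusted p = 0.796).

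Of the starch genes, AMY1 rose with stage in WT by 2.01 ± 0.29 on the log2 scale (SE, limma, adjusted p = 0.000356), and DPE1, a plastid enzyme of maltotriose breakdown, was lower (-0.88 ± 0.24, adjusted p = 0.0159). In NahG against WT at stage 6.0 AMY1 measured 0.10 (adjusted p = 0.889) and DPE1 0.24 (adjusted p = 0.61). Both genes of sucrose synthesis and cleavage rose with stage and were lower in NahG. The invertase-family gene cwINV6 measured 37.27 and 30.4 in NahG, 133.2 and 191.1 in WT at stage 6.0, and 50.34 and 58.95 in WT at stage 3.9. The sucrose-phosphate synthase gene ATSPS4F measured 282.4 and 268.8 in NahG, 621.5 and 506.0 in WT at stage 6.0, and 175.4 and 355.0 in WT at stage 3.9. Both NahG arrays lay below both WT stage 6.0 arrays in each gene. For ATSPS4F the ein2 arrays (345.7 and 299.8) did so too, while the coi1 arrays (611.4 and 585.5) did not. The ATSPS4F differences of ein2 from WT at stage 6.0 (-0.77, adjusted p = 0.358) and of NahG from ein2 (-0.21, adjusted p = 0.747) did not pass in limma. For cwINV6 neither the ein2 (176.5 and 154.0) nor the coi1 arrays (239.8 and 298.3) lay below both WT arrays.

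The log2 change of cwINV6 was 1.32 ± 0.20 with stage (SE, limma, adjusted p = 0.000504) and -1.82 ± 0.20 in NahG against WT at stage 6.0 (adjusted p = 0.000265). For ATSPS4F these were 1.11 ± 0.27 (adjusted p = 0.00771) and -0.98 ± 0.27 (adjusted p = 0.0451). Results of the alternatives are given for the SWEET genes only, so the calls of other genes have no such check here. Of 28 senescence-associated genes 5 had a named probe set, SAG29 among them. Of the other 4, the transcription factor genes WRKY6 (3.35) and WRKY53 (0.93) and YLS5 (0.69, adjusted p = 0.0437) rose with stage in WT and SAG101 (0.57, adjusted p = 0.0638) did not pass. In NahG against WT at stage 6.0, WRKY53 (-2.11, adjusted p = 0.000237) and YLS5 (-1.12, adjusted p = 0.0154) were lower, while SAG29 measured 1.19. The ein2 (183.1 and 267.4) and coi1 arrays (199.2 and 216.7) of YLS5 also lay below both WT stage 6.0 arrays (279.5 and 442.9). Those YLS5 differences did not pass in limma (adjusted p = 0.416 in ein2 and 0.21 in coi1). Against WT at stage 6.0 WRKY53 measured 0.14 in ein2 and -0.48 in coi1. All 5 mesophyll markers were lower with stage, with a median log2 change of -1.76. In NahG against WT at stage 6.0, 2 of the 5 were higher and 1 lower. Their part in the differences of the SWEET genes was not tested.

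**Figure D4:**
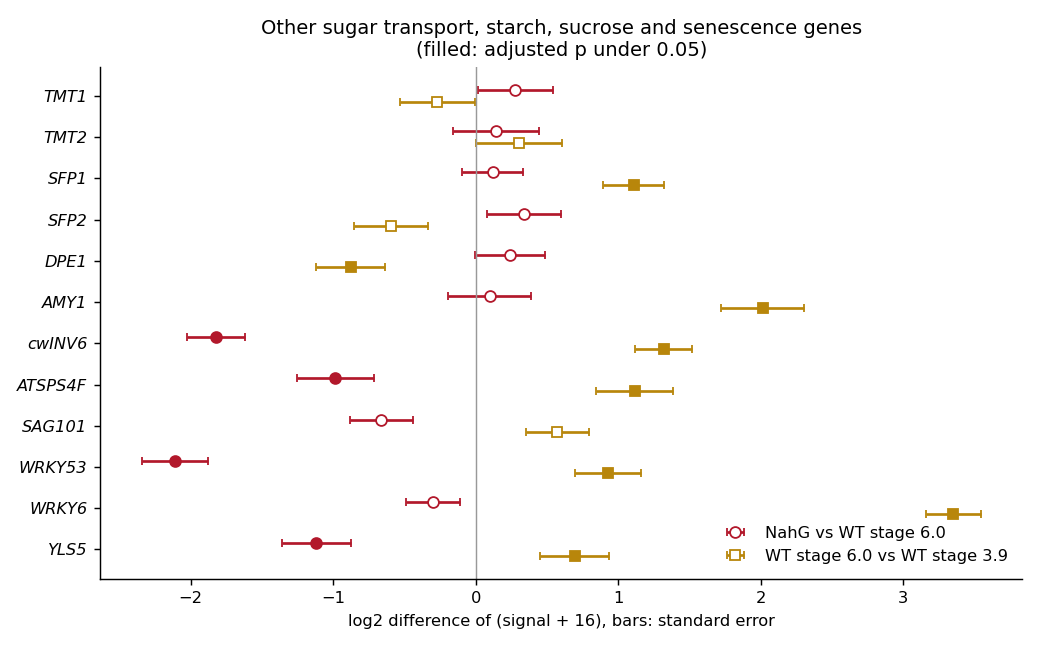
Log2 differences of (signal + 16) for other genes of sugar transport, starch, sucrose and senescence, in NahG against WT at stage 6.0 (red circles) and in WT at stage 6.0 against stage 3.9 (ochre squares). Bars are standard errors from limma and filled symbols have an adjusted p under 0.05. cwINV6, ATSPS4F, WRKY53 and YLS5 are higher with stage and lower in NahG, and AMY1 (2.01), WRKY6 (3.35) and SFP1 (1.11) are filled for stage and open for NahG.

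Likeness of pattern was measured as Pearson's r of log2(signal + 16) over the 10 arrays against 6451 other tested probe sets naming 1 gene, as a description. The 10 arrays share their groups, so r mainly follows the group means. Nearest to SAG29 were AT2G28200 (r = 0.979), AT3G55430 (r = 0.974) and AT5G52450 (r = 0.965). Nearest to SWEET17 were AT1G66100 (r = 0.984), AT3G17780 and AT2G46220 (r = 0.961 each). Nearest to SWEET4 were AT5G16990 (r = 0.968), DI21 (r = 0.956), a drought-induced gene that lies next to SWEET17 in the annotation, and AT5G15190 (r = 0.948). Among the 36 pairs of the 9 SWEET genes 21 had r above 0 and 15 below. SWEET1 and SWEET4 were the most alike (r = 0.884), and SWEET11 and SWEET17 the most opposed (r = -0.798).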

How the data were processed

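Per the submitters' processing notes the authors computed the intensity of each probe set with MAS5 (version not given in the sources used here) before depositing it. They are linear signals, and each array has a 2% trimmed mean of 100. Each array was rescaled to that trimmed mean without the 64 control probe sets. Probe sets at 50 or more on at least 2 arrays were tested on log2(signal + 16) with limma 3.58.1 (lmFit, eBayes with trend, R 4.3.3). One fit held the 10 arrays as 5 groups and had 5 residual degrees of freedom, to which the shared variance estimate added 5.74. P-values were adjusted by Benjamini-Hochberg over 12184 probe sets per comparison, with a threshold of 0.05. The median SE of a log2 change was 0.21.

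Genes were named from the platform annotation, in which 13513 probe sets name 1 gene, 503 several and 8730 none, and from TAIR10.1. Each of the 16 SWEET genes was named by 1 probe set, so levels were not compared between genes. The members, the pathway lists and the marker lists (mesophyll, companion cell, phloem parenchyma, guard cell, trichome, floral, dividing cell) were chosen with earlier results of these data known. Of the phloem parenchyma markers only SWEET11, itself a member, was named. Outside the members, named genes were the list genes tested and the 3 nearest patterns per member. Nothing in the labels tells if a group's arrays came from separate plants, so p-values measure the spread between these samples. The precision is limited by 2 arrays a group. Pairing by number was checked: deviations of WT arrays of the same stock at both stages correlated at 0.0762, and those of arrays with the same number at 0.337 for NahG and ein2, 0.216 for ein2 and coi1 and -0.133 for NahG and coi1. With 2 arrays a group this does not establish pairs, so blocks were alternatives. Alternatives were other added constants, filters, scalings, fits on the groups compared, no trend, a replicate block, and each array left out. Figures used matplotlib 3.10.9.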

Additional observations from a re-analysis of the deposited data

Results flagged for a closer look

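The stage change of SAG29 in wild type was 5.14 on the log2 scale in the N933 arrays and 2.51 in the N1644 arrays, a difference of 2.62 ± 0.365 (SE, limma, adjusted p = 0.00623). This fit, added after the data were seen, treats each of the 4 wild type arrays as a group of its own, so each is a single array and the spread comes from NahG, ein2 and coi1 alone, with 3 residual degrees of freedom. With 1 array per stock and stage, and the split of the stage 6.0 arrays (851.6 and 166.1) already seen, the p does not show a difference between stocks. In that fit 52 of 12184 probe sets passed the same test. SWEET11 (1.43 in N933 and 0.05 in N1644, adjusted p = 0.251) and SWEET17 (-2.65 and -1.32, adjusted p = 0.287) did not pass. Stock, plant and array cannot be told apart here, and the source name of the N1644 array at stage 6.0 conflicts with its stock code and title.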

How the results depend on the processing

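Over 90 differences of the 9 SWEET genes and all alternatives run, 1769 of 1879 values kept their side of the threshold, 70 lost a call, 40 gained one, and no called value changed sign, while 45 values of uncalled differences did. Most of the 90 differences were not called in the main fit. The 1769 values thus include many that stayed uncalled, and they do not measure how often a call held. The counts of SWEET genes past the threshold that changed by a factor over 1.5, or to or from 0, were as follows, and smaller changes are not listed. Scaled to the hybridisation controls, 7 passed with stage instead of 4, 0 in NahG instead of 1 and 1 in ein2 instead of 0, each against WT at stage 6.0 where a genotype is named. The SAG29 p-values of that scaling, which gave the ein2 count, are not relied on, as described above. The other counts of that scaling come from the same fit and carry the same limit. Under it the median of all tested probe sets also rose with stage, as given above. Shares of all probe sets called are not given for the alternatives, so these counts are not read as results about the family. With only the groups compared in the fit, 2 passed with stage, 3 between NahG and ein2 instead of 1, 1 between ein2 and coi1 instead of 0, and against WT at stage 3.9 3 in ein2 instead of 5 and 3 in coi1 instead of 7. Without the filter on low signals, 0 passed in NahG against WT at stage 6.0 and 3 in coi1 against WT at stage 3.9. With quantile normalization, 2 passed between NahG and ein2.

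With single arrays left out, the counts ranged between 2 and 5 with stage, 0 and 1 for each of NahG, ein2 and coi1 against WT at stage 6.0, 1 and 2 between NahG and ein2, 0 and 3 between NahG and coi1, and, against WT at stage 3.9, 4 and 7 for NahG, 2 and 6 for ein2, and 3 and 6 for coi1. In these fits a lone array is assumed to vary like the other groups. With the planned replicate block, 5 genes passed with stage instead of 4, because SWEET2 entered (adjusted p = 0.0447), and 6 in coi1 against WT at stage 3.9 instead of 7, because SWEET1 left (adjusted p = 0.0713). It changed no other count. The stock replicate block in wild type, added after the data were seen, gave 1 in ein2 and 1 in coi1 against WT at stage 6.0 and 3 between NahG and ein2. NahG and coi1 deviations correlated at -0.133 by number, and a crossed replicate block left that count at 2. WT stage 6.0 deviations correlated at -0.302 with NahG, -0.475 with ein2 and -0.193 with coi1, but the WT array numbers only name arrays, so these were not crossed. The causes were not tested. Signals under 50 could not be told from background here.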
